A study of Mus musculus with 4 samples.

Results

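Single cells from the liver of 1 mouse given thioacetamide together with celecoxib at 7.5 mg/kg (TAA+C7.5) were compared with those from 1 mouse given thioacetamide alone (TAA). Cells entered when a barcode had at least 200 genes and at most 20% of its UMIs (unique molecular identifiers, 1 per captured RNA molecule) from mitochondrial genes. This held for 6083 barcodes of the TAA+C7.5 library and 6512 of the TAA library, 12595 of the 24561 such barcodes in the series. The 4 libraries of the series came from wild-type C57B6 mice aged 18 to 20 weeks, 1 per group. The control mouse had saline, the other 3 had intraperitoneal thioacetamide for 12 weeks, and 2 of these had oral celecoxib from week 5, at 7.5 or 30 mg/kg. Hepatic nonparenchymal cells were isolated by digesting the liver with enzymes, lysing red cells and spinning slowly to leave most hepatocytes behind. The control and the 30 mg/kg library (TAA+C30) are given here as background levels only.

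Thioacetamide is a hepatotoxin whose repeated injection causes scarring around the central veins and portal tracts, with an influx of monocytes, neutrophils and lymphocytes and changes in the sinusoidal endothelium. Celecoxib inhibits cyclooxygenase-2, the enzyme encoded by Ptgs2, which makes the precursor of prostaglandins and is induced in activated myeloid cells. The question set by the design is which nonparenchymal cells and which of their genes differ when celecoxib is added to thioacetamide.

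With 1 mouse per side, no test between treatments was possible, and mouse, cell isolation and treatment cannot be told apart. All intervals are exact 95% intervals that cover counting error only, and limits or folds against a count of 0 take that count as 3. After removal of called doublets, 6449 TAA and 5930 TAA+C7.5 cells remained. Together with the other libraries they formed 37 clusters, of which 32 were named into 15 classes by marker genes. The 5 clusters that stayed unnamed held 3.37% of TAA cells, 4.52% of TAA+C7.5 cells and 21.2% of control cells. The TAA library was the deeper one, with a median of 4562 UMIs per kept cell against 1968 in TAA+C7.5 (control 3361, TAA+C30 3100). Genes were therefore compared as CPM, the usual scaling of a gene's UMIs to the total of its class, and shares of cells with a UMI after thinning each cell to 1000 UMIs. Barcodes removed for mitochondrial UMIs numbered 193 in TAA and 24 in TAA+C7.5, and those removed for too few genes 210 and 10. TAA and TAA+C7.5 shared 10 barcodes. No cluster was named as stellate cells or fibroblasts, so the collagen-producing cells of a fibrotic liver were not compared, and RNA of their markers was found in the endothelial class.

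The TAA+C7.5 library held a larger share of lymphocytes and a smaller share of myeloid and endothelial cells than the TAA library. T cells were 12.5% of TAA cells (807 cells) and 30.2% of TAA+C7.5 cells (1790 cells), a ratio of 2.41 (2.22 to 2.62), against 7.09% in the control. Natural killer or innate lymphoid cells (NK or ILC) were 2.79% and 6.07%, a ratio of 2.18 (1.81 to 2.62). Antibody-secreting plasma cells were 0.791% (51 cells) and 1.75% (104 cells), a ratio of 2.22 (1.57 to 3.16). Plasmacytoid dendritic cells (pDC), which are specialised for type I interferon, were 2.08% and 3.68%, a ratio of 1.77 (1.42 to 2.21). B cells differed least among these, at 20.9% and 25.7%, a ratio of 1.23 (1.14 to 1.32).

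The T cell ratio depended on how clusters were named. The T cell class includes clusters that were assigned to T rather than NK cells because they carried the CD3 chains, a rule set after the clusters had been seen. Without that rule the T cell share was 11.5% in TAA and 19.8% in TAA+C7.5, a ratio of 1.72 (1.56 to 1.88). With the unnamed clusters that carried T cell markers counted in, it was 15.04% and 34.15%, a ratio of 2.27. The direction was the same in each case.

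Monocytes or macrophages were 19.8% of TAA cells (1280 cells) and 9.24% of TAA+C7.5 cells (548 cells), a share 2.15 times lower (1.94 to 2.38), with 3.65% in the control. Neutrophils were 17.7% and 9.93%, 1.78 times lower (1.61 to 1.97), with 4.62% in the control. Conventional type 2 or migratory dendritic cells (cDC2) were 5.09% and 1.74%, 2.93 times lower (2.34 to 3.69). The resident macrophages of the liver, Kupffer cells, were 1.78% (115 cells) and 0.658% (39 cells), 2.71 times lower (1.87 to 4.01). Endothelial cells were 4.53% (292 cells) and 1.10% (65 cells), 4.13 times lower (3.15 to 5.49), while they made up 32.1% of control cells. Cholangiocytes, the bile duct epithelium, were 4.68% and 2.58%, 1.81 times lower (1.49 to 2.22). The intervals of the ratio included 1 for type 1 conventional dendritic cells (0.944, 0.654 to 1.36) and myeloid progenitors (0.743, 0.537 to 1.02). The interval of basophils or mast cells did so too (0.586, 0.283 to 1.16).

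Because shares must sum to a whole, they were also taken among leukocytes alone (5580 TAA and 5416 TAA+C7.5 cells). The ratio of TAA+C7.5 to TAA was then 2.28 for T cells, 2.06 for NK or ILC, 2.10 for plasma cells and 1.16 for B cells. It was 0.531 for neutrophils, 0.441 for monocytes or macrophages, 0.349 for Kupffer cells and 0.324 for cDC2. For myeloid progenitors it was 0.704 (0.508 to 0.971). Each of these ratios kept its direction without the epithelial, endothelial and unnamed cells. Leukocytes were most of the cells in both libraries, and their shares also sum to a whole. A larger share of T cells would therefore still lower the other shares, and absolute cell numbers cannot be read from either denominator.

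**Figure D1:**
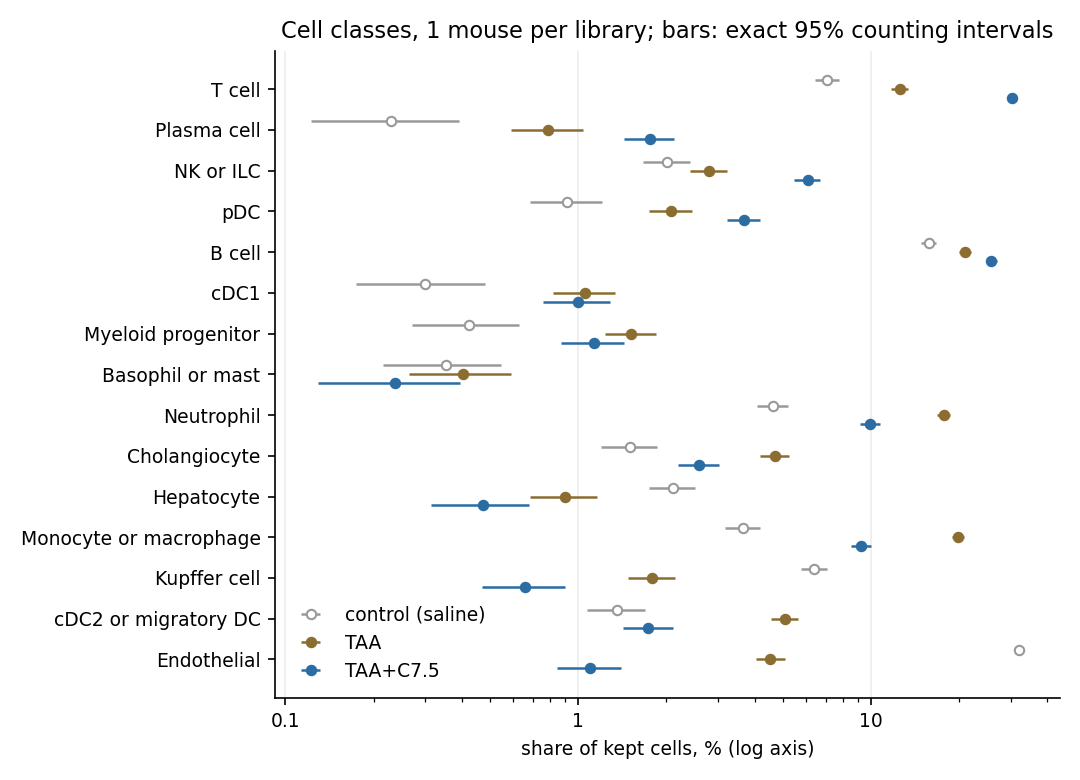
Share of each cell class among the kept cells of 3 libraries, control, TAA and TAA+C7.5 (x axis in %, log scale; 1 mouse each; bars are exact 95% counting intervals), ordered by the ratio of TAA+C7.5 to TAA. T cells sit at 12.5% and 30.2%, monocytes or macrophages at 19.8% and 9.24%, and endothelial cells at 4.53% and 1.10% in TAA and TAA+C7.5.

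Within the T cell class, 2 kinds of cluster held most of the difference in cell number. A cluster led by Lef1 and Tcf7, transcription factors of naive and memory T cells, had 256 TAA and 679 TAA+C7.5 cells and was the largest T cell cluster in both libraries. The 3 clusters in which Pdcd1 and Tox were both among the leading genes had 86 TAA cells and 631 TAA+C7.5 cells, against 8 in the control. The gain lay in 2 of them (11 and 296 cells, 13 and 298 cells), while the one led by Cd8a held 62 and 37. Together they made up 10.7% of T cells in TAA (8.61 to 12.99) and 35.2% in TAA+C7.5 (33.0 to 37.5). The cluster led by Icos, Il17a and Rora, genes of helper and interleukin-17-producing T cells, was level at 234 and 235 cells, 3.63% and 3.96% of all cells. A Ccl5 and Cd8b1 cluster was close to level as well, at 190 and 220 cells. T cells outside the Pdcd1 and Tox clusters still had a higher share in TAA+C7.5, 19.5% against 11.2%, a ratio of 1.75 (1.59 to 1.92). The clusters were drawn from the same expression values, so their sizes are a description.

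**Figure D2:**
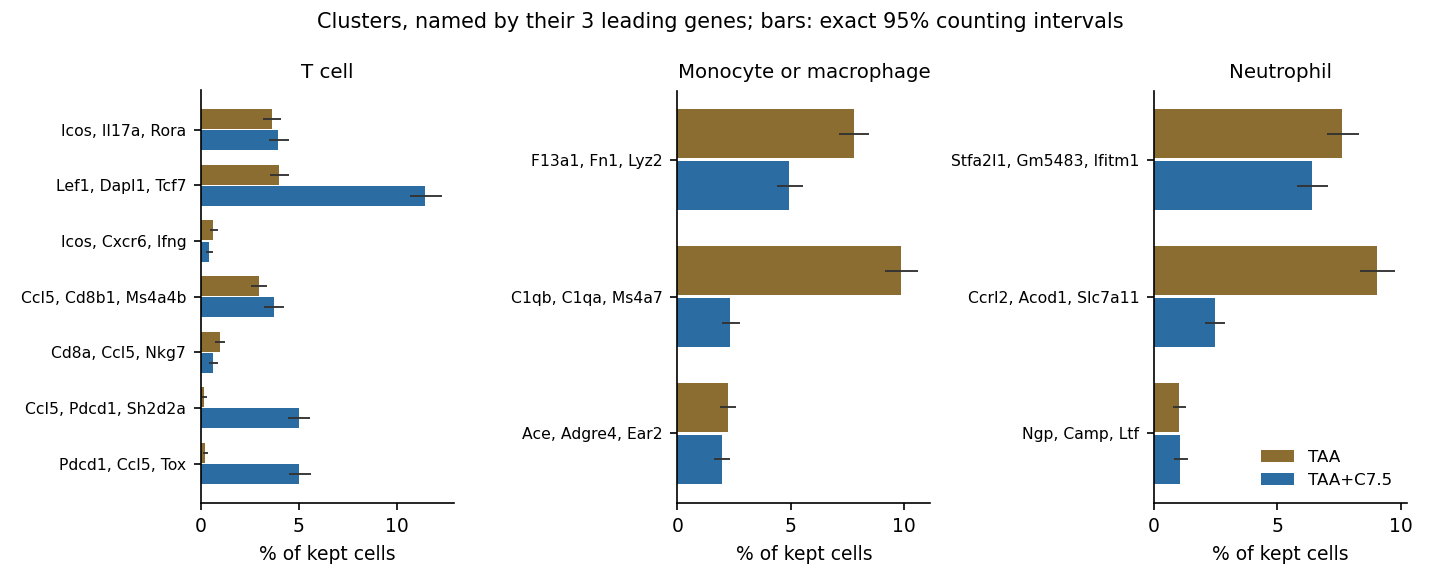
Share of kept cells (x axis in %) in each cluster of the T cell, monocyte or macrophage, and neutrophil classes in TAA and TAA+C7.5, each cluster labelled by its 3 leading genes; bars are exact 95% counting intervals. The 2 lower T cell clusters, led by Ccl5 and Pdcd1, are near 0 in TAA and hold 296 and 298 cells in TAA+C7.5, and the C1qb and Ccrl2 clusters are the myeloid clusters that are smaller in TAA+C7.5 by the widest margin.

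Pdcd1 encodes the inhibitory receptor PD-1, and Tox is a nuclear factor that maintains the exhausted state of chronically stimulated CD8 T cells. At equal depth, 5.08% of TAA T cells (40 of 788) and 15.7% of TAA+C7.5 T cells (257 of 1642) had a Pdcd1 UMI, against 1.56% in the control. Without thinning, which left out 19 TAA and 148 TAA+C7.5 cells below 1000 UMIs, the shares were 11.4% and 22.2%. For Tox the thinned shares were 9.39% and 20.4% (unthinned 25.8% and 31.5%), and both genes were found together in 1.52% and 7.49% (unthinned 6.32% and 13.6%). Lag3, another inhibitory receptor, was found in 1.78% and 5.42% of thinned cells. Gzmk, a granzyme of memory and transitional CD8 cells, was found in 6.73% and 10.9%, and Cd8a in 15.9% and 28.8%. In B cells, which should lack these genes, at most 0.301% of thinned cells had a UMI of any of them in either library, at median depths of 3310 and 1558 UMIs. Ccl5, a chemokine of T cells, was found in 0.672% of thinned TAA B cells but in 4.89% of thinned TAA+C7.5 B cells. The part of such RNA in the Ccl5 values of other classes was not tested.

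Genes of helper and regulatory T cells were found in smaller shares, with intervals that overlapped. Foxp3, the master factor of regulatory T cells, was found in 1.27% of thinned TAA T cells (10 cells) and 0.365% of TAA+C7.5 T cells (6 cells). Cd4 was found in 7.23% and 4.99%, at intervals of 5.52 to 9.27 and 3.99 to 6.16. Il17a was found in 3.30% and 1.83%. The unthinned shares were 3.72% and 0.838% for Foxp3, 22.8% and 8.16% for Cd4, and 4.96% and 2.35% for Il17a.

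**Figure D3:**
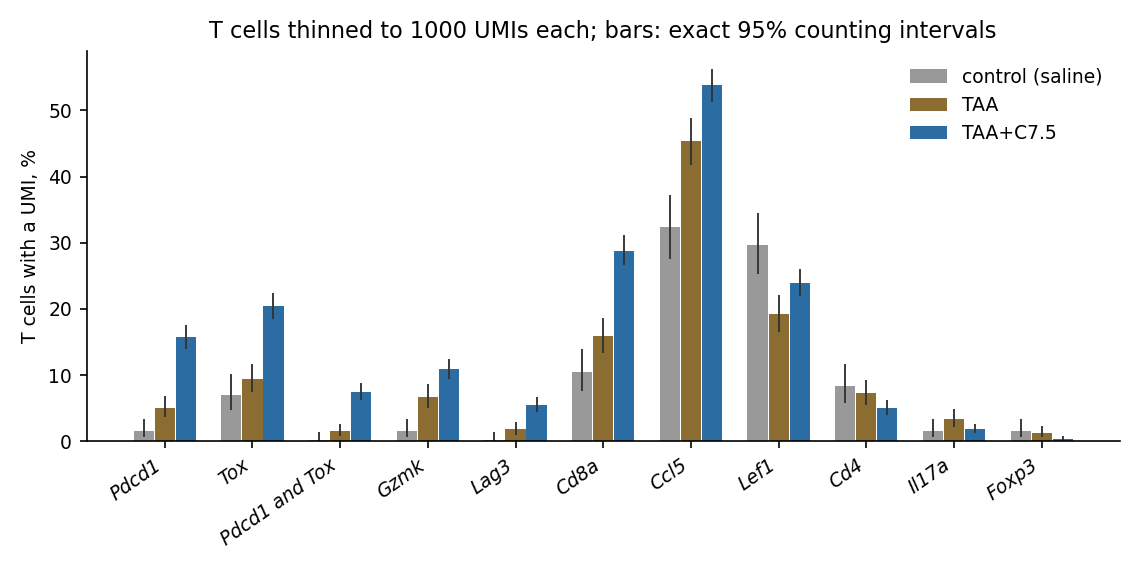
Share of T cells with at least 1 UMI of a gene (y axis in %) after thinning every cell to 1000 UMIs, in control (384 cells), TAA (788 cells) and TAA+C7.5 (1642 cells); bars are exact 95% counting intervals. Pdcd1, Tox, Lag3 and Cd8a are higher in TAA+C7.5 than in TAA with no overlap of intervals, while the Foxp3 intervals overlap, at 1.27% in TAA and 0.365% in TAA+C7.5.

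Over all genes of the T cell class, a log2 ratio with 10 CPM added to both libraries was taken, and a gene was counted as 2-fold different only if the higher library had at least 50 CPM and 30 UMIs. In T cells 22 genes (0.732% of 3005) were at least 2-fold higher in TAA+C7.5 and 20 (0.666%) at least 2-fold lower. For gene lists a looser count was used, at least 1.5-fold among genes with 10 UMIs in both libraries together, and all genes reach it in 1.29% (higher) and 1.49% (lower) of cases in T cells. Across all genes counted for lists, the median log2 ratio of each of the 8 classes lay between -0.0194 in neutrophils and 0.0559 in B cells. TMM scaling, another normalisation, moved the centre of all genes by over 0.1 in B cells (0.125), monocytes or macrophages (0.103), cDC2 (0.153) and endothelial cells (0.115). Folds below are ratios of CPM and log2 ratios include the added 10 CPM.

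Pdcd1 stood at 51.7 CPM in TAA and 193 CPM in TAA+C7.5, 3.73-fold higher (3.19 to 4.38), with 9.49 CPM in the control. Tox stood at 89.2 and 248 CPM (log2 ratio 1.38) and Nr4a2, an activation-induced nuclear receptor, at 344 and 872 CPM (1.32). Rgs16, a regulator of G protein signalling, stood at 24.7 and 94.2 CPM (1.59). The chemokines Ccl3 and Ccl5 stood at 27.0 and 127 CPM (1.89) and at 5624 and 10353 CPM (0.88). When each cluster was given the same weight in both libraries, the log2 ratio was 0.12 for Pdcd1, 0.12 for Nr4a2, 0.56 for Ccl3, 0.76 for Tox and 1.31 for Rgs16. Pdcd1, Tox and Nr4a2 are among the leading genes of some of these clusters, so equal weights can remove their difference by construction. The Pdcd1 clusters with the gain held only 11 and 13 TAA cells. In the Icos cluster alone Pdcd1 was level, at 63.2 and 64.4 CPM. In the Ccl5 and Cd8b1 cluster it stood at 21.6 and 41.4 CPM (18 and 16 UMIs), a ratio whose interval included 1 (1.92, 0.916 to 3.99).

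Of the 21 measured genes of the exhaustion and regulation list, 6 were at least 1.5-fold higher and 4 lower, with a median log2 ratio of -0.01. The lower ones included Icos, a costimulator of helper T cells (555 and 273 CPM), Maf, a helper cell factor (281 and 144 CPM), and Foxp3 (61 and 25 UMIs). At equal cluster weights the log2 ratios were -0.13 for Icos, -0.37 for Maf and -0.09 for Foxp3, against -0.92 for Maf and -0.66 for Foxp3 with the clusters as found. Ctla4, an inhibitory receptor shared by regulatory and activated T cells, was level at 169 and 167 CPM. Among 22 cytotoxic and effector genes, 8 were higher and 1, Klrk1 (NKG2D), was lower at 129 and 71.1 CPM (log2 ratio -0.77, and -0.24 at equal cluster weights). The median of that list was 0.22, and -0.02 at equal cluster weights. Of 13 naive and memory genes none was higher and 1 was lower, S1pr1, the receptor for exit from tissue (394 and 257 CPM).

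Among the largest decreases in T cells were Ly6a, Cd40lg, Ccr2 and Tnfrsf4. Ly6a encodes the interferon-induced surface protein Sca-1 and stood at 275 CPM in TAA and 94.2 CPM in TAA+C7.5 (log2 ratio -1.45; control 154 CPM). Cd40lg, the helper signal to B cells, stood at 64.5 and 18.1 CPM, 3.55 times lower (2.73 to 4.67). Ccr2, a receptor for homing to inflamed tissue, stood at 142 and 48.7 CPM, and the costimulator Tnfrsf4 (OX40) at 99.9 and 35.1 CPM. Itga1, an integrin of tissue-resident cells, stood at 72.6 and 29.1 CPM. At equal cluster weights the log2 ratios were -0.85 for Ly6a, -0.63 for Cd40lg, -0.62 for Ccr2 and -0.45 for Tnfrsf4.

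NK or ILC formed a single cluster, with 180 TAA and 360 TAA+C7.5 cells. Chemokine, interferon-gamma and cytotoxic genes were higher in TAA+C7.5 and cell cycle genes lower. Ccl3 stood at 221 and 1314 CPM, 5.94-fold higher (5.12 to 6.91), Ccl4 at 1009 and 3021 CPM, and Ifng at 201 and 579 CPM, 2.88-fold higher (2.43 to 3.43). The pore-forming Prf1 stood at 389 and 855 CPM and Gzmb at 477 and 949 CPM. For Ccl3, Ccl4, Prf1 and Gzmb the control mouse was also above TAA, at 721, 2868, 844 and 1611 CPM. Genes induced by NF-kB stood higher too: Nfkbia at 785 and 2453 CPM, Icam1 at 259 and 887 CPM, Nfkbiz at 368 and 987 CPM, and Gadd45b at 148 and 612 CPM.

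In NK or ILC, 52 genes (1.51% of 3440) were at least 2-fold higher and 36 (1.05%) lower, and 6.18% and 6.98% of genes passed the 1.5-fold count. Against that, 10 of 22 cytotoxic genes were 1.5-fold higher and 2 lower (median log2 ratio 0.40), and 9 of 16 inflammatory and NF-kB genes were higher with none lower (median 0.65). Of 17 cell cycle genes 12 were lower and none higher (median -0.66). Pclaf, a DNA replication clamp partner, had 70 UMIs in TAA and 1 in TAA+C7.5, and Top2a had 53 and 10. The cell cycle median was -0.40 by the mean of each cell's CPM and -0.43 when cells were classed by marker scores. By that mean the log2 ratio of Pclaf moved from -2.83 to -1.44 and that of Top2a from -1.42 to -0.83. Gzmc, a granzyme of strongly stimulated NK cells, was lower at 348 and 77.4 CPM (4.49 times, 3.38 to 6.07), as were Rbpj, the Notch effector, at 135 and 47.0 CPM and Capg, an actin-capping protein, at 54.5 and 13.8 CPM. Lpxn, a focal adhesion protein, stood at 81.8 and 26.3 CPM.

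Interferon-induced genes were lower in TAA+C7.5 neutrophils. Isg15, a ubiquitin-like protein made in response to interferon, stood at 794 CPM in TAA, 318 CPM in TAA+C7.5 and 112 CPM in the control, 2.49 times lower than in TAA (2.20 to 2.84). Ifi27l2a stood at 1649 and 529 CPM (control 335), Rsad2, the antiviral enzyme viperin, at 614 and 198 CPM (control 225), and Ifit1, which binds foreign RNA, at 175 and 55.0 CPM (control 28.3). Slfn5 stood at 222 and 86.7 CPM and Oasl1 at 117 and 37.5 CPM. Of 26 measured interferon response genes 20 were at least 1.5-fold lower and none higher, with a median log2 ratio of -0.85. Among all neutrophil genes 4.18% were 1.5-fold higher and 5.72% lower. By the 2-fold count, 28 neutrophil genes (1.16% of 2405) were higher and 36 (1.5%) lower.

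Much of the neutrophil class lay in different clusters in the 2 libraries. The cluster led by Ccrl2, with Cxcl2 and Slfn4, held 583 TAA and 146 TAA+C7.5 cells, and the cluster led by Stfa2l1, with Ifitm1, held 493 and 379. The smallest, led by the secondary granule genes Ngp, Camp and Ltf, held 66 and 64. The interferon list was lower in each of them, with medians of -1.05 (21 of 25 genes lower), -0.26 (4 of 23) and -0.52 (8 of 18). Over all genes of these clusters, 17.2%, 6.56% and 13.4% were 1.5-fold lower and 12.6%, 10.5% and 16.4% higher. Ifi27l2a stood at 2222 and 833 CPM in the Ccrl2 cluster and at 1432 and 466 CPM in the Stfa2l1 cluster, 2.67 and 3.07 times lower. Other members differed less in the Stfa2l1 cluster, where Isg15 stood at 608 and 369 CPM and Ifit1 at 52.2 and 45.8 CPM, a ratio whose interval included 1 (0.878, 0.515 to 1.45). In the Ccrl2 cluster Ifit1 stood at 349.7 and 154 CPM.

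The promoters of 4 interferon genes that differed in neutrophils are shown because interferon-stimulated response elements are read from sequence. Type I interferon acts through STAT and IRF factors, of which the IRF factors bind repeats of GAAA. The motif searched was GAAANNGAAA on both strands, in the stretch from 250 bases before to 50 bases after each RefSeq start (build GRCm38.p6). The 200 bases before the start are printed in the direction of the gene, with matches in capitals; a match on the other strand reads as TTTC repeats.
Ifit1, chr19:34640689-34640888, plus strand: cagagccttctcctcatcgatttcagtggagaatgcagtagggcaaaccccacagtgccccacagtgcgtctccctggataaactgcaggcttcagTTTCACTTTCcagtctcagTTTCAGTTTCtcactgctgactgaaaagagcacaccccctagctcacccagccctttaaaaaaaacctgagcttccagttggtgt
Isg15, chr4:156200819-156201018, minus strand: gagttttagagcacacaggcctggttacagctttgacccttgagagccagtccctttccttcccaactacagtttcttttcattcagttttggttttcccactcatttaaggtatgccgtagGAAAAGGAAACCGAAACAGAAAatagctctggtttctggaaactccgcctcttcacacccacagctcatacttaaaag
Rsad2, chr12:26456453-26456652, minus strand: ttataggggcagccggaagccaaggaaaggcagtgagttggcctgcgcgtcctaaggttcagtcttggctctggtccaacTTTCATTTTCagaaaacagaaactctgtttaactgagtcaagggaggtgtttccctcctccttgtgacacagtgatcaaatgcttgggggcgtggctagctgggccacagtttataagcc
Slfn5, chr11:82951902-82952101, plus strand: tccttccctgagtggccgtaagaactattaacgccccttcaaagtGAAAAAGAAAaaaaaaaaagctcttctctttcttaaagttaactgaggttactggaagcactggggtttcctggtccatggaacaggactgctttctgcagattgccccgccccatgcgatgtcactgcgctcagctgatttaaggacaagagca
The matches begin 104 and 85 bases before the start in Ifit1, 78, 72 and 66 in Isg15 (overlapping), 120 in Rsad2 and 155 in Slfn5.

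A match was present for 14 of the 21 interferon response genes that have an entry in the RefSeq table (66.7%) and for 9 of 14 genes of the interferon-gamma and GTPase list (64.3%). Over the whole table it was present in 3.44% of 32851 promoters, or 3.99% of genes. It was found for 1 of 10 glucocorticoid target genes and for none of 19 heat shock genes. These are matches of letters, and binding was not measured.

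The same interferon list was lower in its median in all 8 classes with at least 100 cells per library. After neutrophils came cholangiocytes at -0.53 (8 of 28 genes 1.5-fold lower), pDC at -0.53 (12 of 27), T cells at -0.40 (4 of 28), monocytes or macrophages at -0.39 (7 of 28), B cells at -0.26 (2 of 27), NK or ILC at -0.22 (6 of 26 lower and 1 higher) and cDC2 at -0.16 (4 of 28). The 1.5-fold lower background was 2.26% in cholangiocytes, 5.16% in pDC, 1.91% in monocytes or macrophages, 0.992% in B cells and 5.29% in cDC2. The T cell median hid opposite clusters: it was -0.79 in the Icos cluster (19 of 26 lower) and 0.45 in the Ccl5 and Cd8b1 cluster (9 of 25 higher, 2 lower). All genes passed the same count in 6.96% (higher) and 7.19% (lower) of cases in the former cluster and in 9.18% and 7.84% in the latter. In pDC, Isg15 stood at 109 and 50.3 CPM, while Bst2, an interferon-induced tether that marks pDC, stood at 3321 and 4275 CPM.

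**Figure D4:**
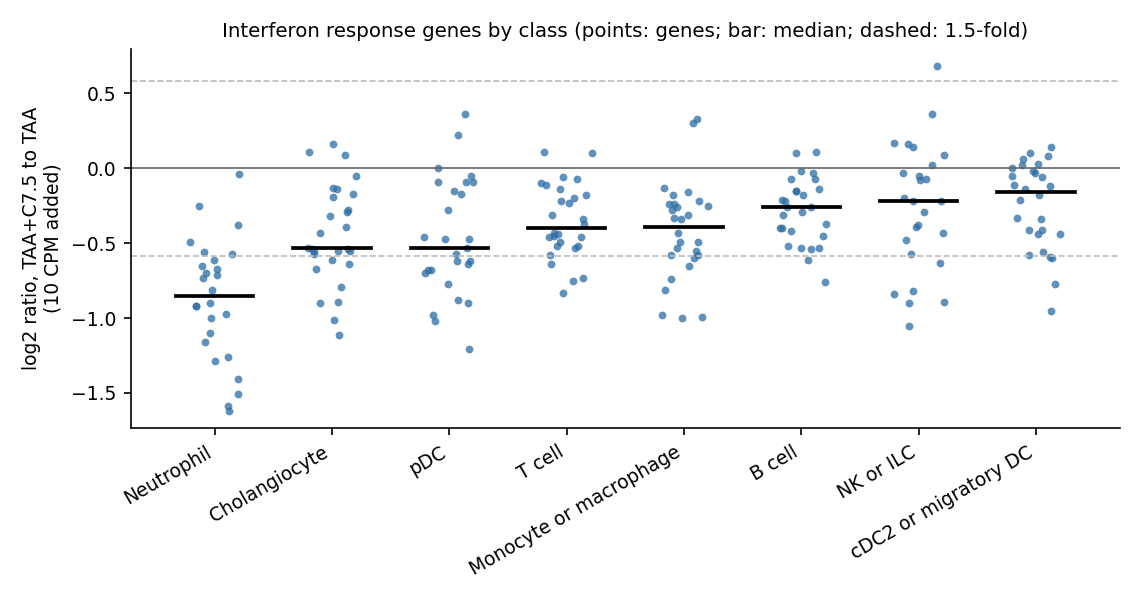
Log2 ratio of TAA+C7.5 to TAA (y axis, 10 CPM added) for each measured interferon response gene in 8 classes; black bars are medians, dashed lines 1.5-fold, and points are spread sideways for clarity only. The median runs from -0.85 in neutrophils to -0.16 in cDC2, and 20 of 26 neutrophil genes lie under the lower dashed line.

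Over the whole neutrophil class, granule genes of immature neutrophils were higher in TAA+C7.5. Camp, the cathelicidin of secondary granules, stood at 2920 and 8830 CPM (control 408), Ngp at 3278 and 5678 CPM, and Ltf at 786 and 1316 CPM. Of the 8691 and 7540 Camp UMIs, 8685 and 7536 lay in the Ngp and Camp cluster of 66 and 64 cells. Within that cluster Camp stood at 18982 and 35592 CPM, but Ngp at 21240 and 22722 CPM and Ltf at 5027 and 5261 CPM. At equal cluster weights the log2 ratios were 0.90 for Camp, 0.11 for Ngp and 0.09 for Ltf. Elane, the elastase of promyelocytes, had 1 UMI in TAA and 156 in TAA+C7.5, and Prtn3 had 26 and 114. Of 18 granule genes 12 were 1.5-fold higher and none lower (median 0.66), and the median was 0.23 at equal cluster weights. The 7 myeloid progenitor markers summed to 16.1 and 363 CPM in the class (control 21.2; 2 and 0 of them at 0), and their part in this result was not tested. Elane and Prtn3 lost their direction when cells were classed by marker scores (log2 ratios -0.05 and -0.37). Il1b, an inflammatory cytokine, stood at 7708 and 7759 CPM and Cxcl2, a neutrophil chemokine, at 14904 and 14790 CPM. Of 21 inflammatory and NF-kB genes 1 was higher and 1 lower in the class (median 0.11), but within clusters more were higher: 12 of 21 with 2 lower in the Ccrl2 cluster (median 0.67) and 6 of 21 with none lower in the Stfa2l1 cluster (median 0.25). Ccl4, a chemokine, stood at 2868 and 6425 CPM in the Ccrl2 cluster and at 1412 and 2291 CPM in the Stfa2l1 cluster. Rgs1, which dampens chemokine receptor signals, stood at 330 and 110 CPM. Fbxo31, a ubiquitin ligase subunit, stood at 30.6 and 99.5 CPM, with 80.6 CPM in the control.

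The monocyte or macrophage class also changed its make-up. The cluster led by C1q genes, with Gpnmb, Trem2 and Apoe, held 636 TAA cells (29 in the control) and 139 TAA+C7.5 cells. The cluster led by F13a1, Fn1 and Lyz2, genes of classical monocytes, held 501 and 293, and that led by Ace and Ear2, genes of patrolling monocytes, 143 and 116. The C1q cluster was thus the largest in TAA and the F13a1 cluster the largest in TAA+C7.5. Of 20 measured genes of lipid-associated or scar-associated macrophages, 10 were 1.5-fold lower and none higher (median -0.60), where 1.91% of all genes were higher and 1.91% lower. At equal cluster weights the median was -0.05. Of 14 classical monocyte genes 7 were higher and none lower (median 0.56, and 0.18 at equal weights), and of 12 patrolling genes 6 were higher and 1 lower (median 0.61, and 0.06 at equal weights).

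Within that shift single genes behaved differently. Spp1, the matrix protein osteopontin made by macrophages of fibrotic tissue, stood at 267 CPM in TAA and 67.4 CPM in TAA+C7.5, 3.96 times lower (3.40 to 4.66), with 49.2 CPM in the control. It remained lower within clusters, at 368 and 120 CPM in the C1q cluster and 109 and 44.2 CPM in the F13a1 cluster. However, Spp1 is also a leading gene of the main cholangiocyte cluster. The 13 monocyte or macrophage markers, Spp1 among them, summed to 27788 and 26851 CPM in cholangiocytes, whose share was lower in TAA+C7.5. The part of free cholangiocyte RNA in the Spp1 values of macrophages was not tested. Gpnmb, a lysosomal glycoprotein of scar-associated macrophages, stood at 430 and 224 CPM in the class but at 669 and 601 CPM in the C1q cluster. Trem2, a lipid receptor, stood at 478 and 348 CPM in the class and 678 and 774 CPM in the C1q cluster. The elastase Mmp12 (177 and 72.2 CPM) and the growth factor Igf1 (152 and 63.4 CPM) were closer within the C1q cluster, at 275 and 203 CPM and at 239 and 173 CPM. Mmp14, a membrane collagenase, stood at 131 and 53.4 CPM and Pdgfb, a mitogen for stellate cells, at 81.3 and 45.9 CPM. Tgfb1, the main profibrotic cytokine, stood at 376 and 460 CPM. Of the 17 genes of the TGF-beta and profibrotic list 5 were lower and none higher.

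Over all genes of the class 29 (0.881% of 3291) were at least 2-fold higher and 26 (0.790%) lower. The lower ones included Ly6a at 705 and 248 CPM (control 91.2), 2.85 times lower (2.62 to 3.09). Ly6a was lower in each cluster, at 912 and 447 CPM in the C1q cluster, 408 and 165 CPM in the F13a1 cluster and 160 and 36.0 CPM in the Ace cluster. Cxcl9, an interferon-gamma-induced chemokine for T cells, stood at 56.7 and 14.4 CPM but at 231 CPM in the control. Iigp1, an interferon-gamma-induced GTPase, had 357 and 11 UMIs, and 8 of 18 genes of its list were lower with none higher (median -0.56, and -0.47 at equal weights). Tnip3, an NF-kB inhibitor, stood at 123 and 46.7 CPM, the long noncoding RNA AW112010 at 669 and 269 CPM, and Fbxo32, a ubiquitin ligase subunit, at 64.0 and 21.5 CPM. H2-Aa, a class II antigen presentation chain, stood at 4992 and 3080 CPM, and the class II list had a median of -0.48, or -0.14 at equal weights.

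Higher in TAA+C7.5 monocytes or macrophages were genes known as glucocorticoid receptor targets. Fkbp5, a chaperone that feeds back on that receptor, stood at 16.4 CPM in TAA, 74.6 CPM in TAA+C7.5 and 19.03 CPM in the control, 4.56-fold higher than TAA (3.73 to 5.57). Tsc22d3, the leucine zipper protein GILZ, stood at 97.1 and 255 CPM, but the control was at 260 CPM, and Klf9 at 34.8 and 90.5 CPM with the control at 109. Of 12 listed targets 6 were 1.5-fold higher and 1 lower (median 0.63). Fkbp5 was higher in each cluster of the class, at 8.93 and 76.8 CPM in the F13a1 cluster, 20.2 and 64.4 CPM in the C1q cluster and 14.4 and 93.1 CPM in the Ace cluster. Rgcc, a cell cycle regulator, was higher as well, at 14.6 and 71.8 CPM, as were Tppp3, a tubulin-binding protein, at 56.3 and 159 CPM (control 148) and Stxbp6 at 15.01 and 53.4 CPM (control 39.6).

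Fkbp5 and Tsc22d3 stood higher in other classes too. Tsc22d3 was higher in all 8 classes, with log2 ratios from 0.59 in T cells to 1.58 in cDC2, and 1.25 in neutrophils (102 and 258 CPM). However, the control and TAA+C30 also stood above TAA for Tsc22d3 in all 8 classes, at 373 and 178 CPM in neutrophils. In B cells the control was at 1085 CPM, against 556 CPM in TAA and 977 CPM in TAA+C7.5. Fkbp5 stood at 15.1 and 56.2 CPM in neutrophils (3.72-fold, 2.42 to 5.71) and at 14.1 and 39.1 CPM in B cells. In TAA+C30 neutrophils Fkbp5 was at 17.5 CPM, near TAA. The list medians in the other classes were 0.36 in neutrophils, 0.29 in B cells, 0.27 in cholangiocytes, 0.24 in cDC2, 0.18 in pDC, 0.12 in NK or ILC and 0.09 in T cells.

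**Figure D5:**
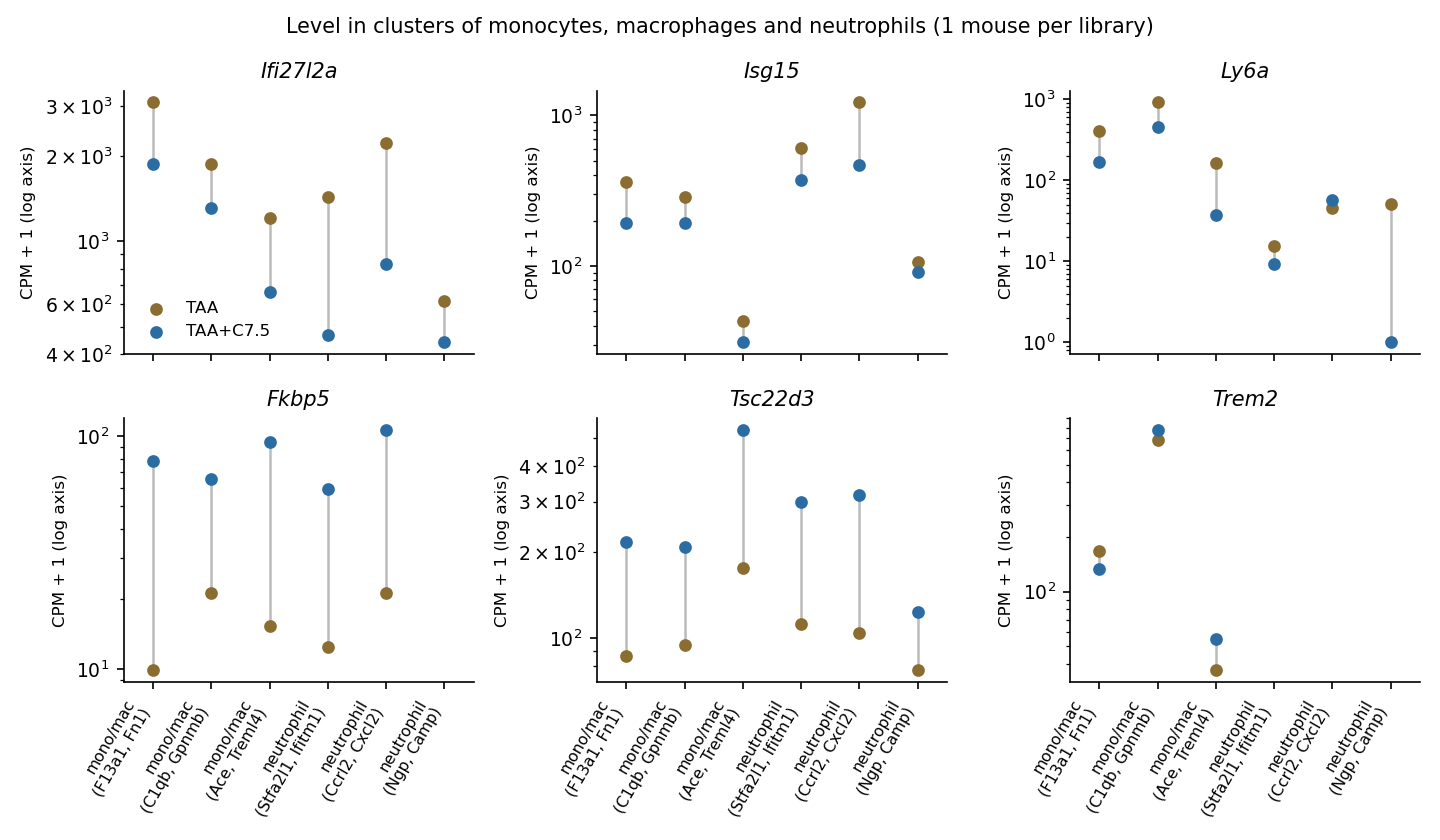
Level of 6 genes (y axis, CPM + 1, log scale) in TAA and TAA+C7.5 within each cluster of monocytes or macrophages and of neutrophils, with clusters named by leading genes; grey lines join the 2 libraries, and a gene with too few UMIs in a cluster has no points. Fkbp5 and Tsc22d3 lie higher in TAA+C7.5 in each cluster shown, Ifi27l2a and Isg15 lower, Ly6a lower in the 3 monocyte or macrophage clusters, and Trem2 is nearly level in the C1qb cluster. In the Ngp and Camp cluster the intervals of Isg15 (ratio 0.855, 0.475 to 1.48) and Tsc22d3 (1.605, 0.928 to 2.74) included equal levels.

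The target of celecoxib and its pathway were looked at by role. Ptgs2 stood at 232 CPM in TAA and 116 CPM in TAA+C7.5 monocytes or macrophages, 1.99 times lower (1.76 to 2.25), with 184 CPM in the control. It was lower in the F13a1 cluster (202 and 123 CPM), the C1q cluster (265 and 141 CPM) and the Ace cluster (72.0 and 24.0 CPM). In neutrophils it stood at 1222 and 1382 CPM, with 1970 CPM in the control (log2 ratio 0.18, and 0.38 at equal cluster weights). In the Ngp and Camp cluster of neutrophils it was higher, at 245 and 557 CPM (112 and 118 UMIs). Ptgs1, the constitutive cyclooxygenase, stood at 149 and 87.7 CPM in monocytes or macrophages but was level within the C1q cluster at 228 and 219 CPM. Hpgd, which degrades prostaglandins, was higher in both monocytes or macrophages (125 and 214 CPM) and cDC2 (28.1 and 110 CPM). Ptger4, the EP4 receptor for prostaglandin E2, stood at 82.8 and 218 CPM in NK or ILC (control 193). Of the 28 listed prostanoid and leukotriene genes, 22 were measured in monocytes or macrophages, with 4 higher, 2 lower and a median of -0.00, and 18 in neutrophils, with 3 higher, none lower and a median of 0.10.

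B cells differed in few genes: 18 (0.570% of 3156) were at least 2-fold higher and 8 (0.253%) lower, and 1.36% passed the 1.5-fold count upward. Slc15a2, a peptide transporter, had 1 UMI in TAA and 209 in TAA+C7.5 B cells, and stood at 97.9 CPM in the control and 66.7 CPM in TAA+C30, so that TAA was the library that stood apart. In T cells it had 0 and 150 UMIs, and whether the mice themselves differed at this gene was not tested. Crip1, a LIM protein, stood at 963 and 320 CPM (3.01 times lower, 2.80 to 3.25), the cyclin Ccnd2 at 99.0 and 30.2 CPM and Ifi30, a lysosomal thiol reductase, at 252 and 132 CPM. The linker histone gene Hist1h1c stood at 164 and 87.0 CPM. The activation and subset list had 1 of 23 genes higher and 2 lower (median 0.09). Nearly all of the class lay in 1 cluster in both libraries (1339 of 1351 and 1517 of 1525 cells).

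Heat shock genes, which enzymatic dissociation can induce, were higher in TAA+C7.5 in most classes. Hspa1a and Hspa1b are near-identical copies that encode HSP70, so reads may be split between them. In T cells they stood at 144 and 594 CPM and at 185 and 680 CPM, with 497 and 825 CPM in the control. In B cells they stood at 71.5 and 307 CPM and at 68.8 and 294 CPM. The list median was between 0.14 in monocytes or macrophages and 0.54 in NK or ILC (11 of 24 genes higher, 1 lower). The part of cell handling in the other differences was not tested.

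Among cDC2 (328 and 103 cells), 41 genes (1.41% of 2914) were at least 2-fold higher and 30 (1.03%) lower, and 6.06% passed the 1.5-fold count upward. Ccl17, a chemokine of migratory dendritic cells, stood at 24.4 and 178 CPM (7.27-fold, 5.38 to 9.84), Ccl5 at 579 and 1523 CPM, Ccl3 at 87.8 and 247 CPM, Tnfrsf4 at 7.30 and 65.4 CPM, and Gclc, which makes glutathione, at 31.2 and 150 CPM. Serpinb6b, a serine protease inhibitor, stood at 47.2 and 204 CPM. Lower were Ly6a (666 and 232 CPM), Pltp, a lipid transfer protein (127 and 39.2 CPM), the endosomal transporter Slc15a3 (237 and 82.2 CPM) and Tnip3 (587 and 226 CPM). Cd300lf, an inhibitory receptor of myeloid cells, had 243 and 9 UMIs. Of 22 inflammatory genes 5 were higher and 1 lower (median 0.28). In its largest cluster in TAA+C7.5, with 114 and 60 cells, 16 of 28 interferon genes were lower (median -0.74), where 10.3% of all genes were lower and 10.3% higher.

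Among pDC (134 and 218 cells), 31 genes (0.873% of 3549) were at least 2-fold higher and 28 (0.789%) lower, and 5.12% passed the 1.5-fold count upward. Cd4, which mouse pDC carry, stood at 112 and 321 CPM (2.88-fold, 2.34 to 3.55), and Gstp1, a glutathione transferase, at 27.0 and 87.7 CPM. Lower were Ccr2 (294 and 105 CPM; control 382), Aif1, an actin-binding protein (79.3 and 15.2 CPM), the hydroxylase Cyp4f18 (64.2 and 12.9 CPM) and Slc15a3 (109 and 40.9 CPM). Fcgrt, the neonatal Fc receptor, stood at 63.4 and 23.4 CPM. The 13 monocyte or macrophage markers in pDC summed to 3161 and 1841 CPM (control 2479; 1 and 6 of them at 0), and Apoe stood at 954 and 102 CPM. Their part in the lower genes was not tested.

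Cholangiocytes (302 and 153 cells) had 50 genes (1.26% of 3953) at least 2-fold higher and 33 (0.835%) lower, and 2.63% passed the 1.5-fold count upward. The highest ratios came from a cluster of 18 TAA+C7.5 cells led by Dmbt1, Chil4, Spink4 and Tff2, which held no TAA or control cell and 14 TAA+C30 cells. No TAA cell among 6449 allows a share of up to 0.0465%. Dmbt1, a mucosal scavenger receptor, had 0 UMIs in TAA and 1941 in TAA+C7.5, at least 2566-fold higher when TAA is set to 3 counts over the class. It came from that cluster, and its log2 ratio was 0.00 at equal cluster weights, which leave that cluster out. Spink4 and Lgals4, genes of mucus-secreting and intestinal epithelium, stood at 5.12 and 234 CPM and at 5.67 and 196 CPM, but at equal cluster weights their log2 ratios were -0.11 and -0.16. Igfbp5, which binds insulin-like growth factors, stood at 10.1 and 88.5 CPM, with 0.24 at equal weights.

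In the main cholangiocyte cluster (302 and 135 cells) and in the class, genes of the interferon-gamma and class II lists were lower in TAA+C7.5. In the class, Lcn2, an iron-scavenging acute-phase protein, stood at 1482 and 446 CPM (3.32 times lower, 3.06 to 3.61), with 218 CPM in the control and 1387 CPM in TAA+C30. Cxcl5, a neutrophil chemokine, had 352 and 4 UMIs, complement C4b 666 and 25, and Msmp 388 and 1. Iigp1 stood at 149 and 47.2 CPM, and 9 of 18 genes of its list were lower with none higher (median -0.54). Cd74, the class II invariant chain, stood at 1084 and 470 CPM, with 178 CPM in the control. Of 14 class II genes 7 were lower with none higher (median -0.65, but -1.10 with 1 CPM added and -0.17 with 50 CPM added). Cd74 was also lower in the Ngp and Camp cluster of neutrophils, at 477 and 61.4 CPM. S100a8, a neutrophil gene, stood at 203 and 13.8 CPM in cholangiocytes. The part of free RNA of other classes in the class II values was not tested.

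Endothelial cells were only 65 in TAA+C7.5, and the 1.5-fold count was passed by 10.4% of genes upward and 11.1% downward, more than in any other class described. The 10 stellate or fibroblast markers summed to 162 CPM in TAA and 2678 CPM in TAA+C7.5 endothelial cells (control 119; 0 and 1 of them at 0). Most of this RNA lay in few cells of the sinusoidal cluster: 5 of its 45 TAA+C7.5 cells held 804 of 813 such UMIs, and 3 of its 43 TAA cells 404 of 439. Its part in the gene differences of the class was not tested. The cluster led by Ednrb and Selp held 209 TAA and 17 TAA+C7.5 cells, and the sinusoidal cluster led by Ehd3 and Stab2 held 43 and 45, against 1750 in the control. The class therefore lay mostly in different clusters in the 2 libraries. Vwf, the clotting factor carrier of large vessels, had 287 and 3 UMIs (log2 ratio -2.26, and -0.64 with doublets kept), and Selp, the leukocyte-rolling receptor P-selectin, stood at 397 and 88.7 CPM. The endothelin receptor Ednrb stood at 1874 and 851 CPM (log2 ratio -1.13, and -0.45 at equal cluster weights), the tip cell gene Esm1 at 190 and 36.2 CPM and the adhesion receptor Vcam1 at 897 and 421 CPM. Lyve1 and Stab2, receptors of the sinusoid, stood at 614 and 1137 CPM and at 967 and 831 CPM. Ptgs2 had 8 and 26 UMIs, a difference that was gone when doublets were kept (log2 ratio -0.03) and small by marker scores (0.14).

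Transcripts of other classes were found in T cells. S100a8, a neutrophil gene, stood at 87.7 and 21.9 CPM in T cells, and Apoe, a macrophage gene, at 302 and 68.4 CPM. Both were at least 2-fold lower in 4 classes, beside the smaller share of neutrophils and macrophages in TAA+C7.5. Over the whole marker lists, the 12 neutrophil markers summed to 224 and 88.8 CPM in T cells (control 133, 1 marker at 0 in TAA) and the 13 monocyte or macrophage markers to 721 and 313 CPM (control 501, 1 marker at 0 in both). The 15 endothelial markers summed to 94.5 and 102 CPM in T cells, where Ly6a, which endothelial cells also make, was lower. The part of free RNA in these results was not tested. Wdfy1, a gene of endosomal signalling, was at least 2-fold higher in 5 classes, as was the pseudogene Pisd-ps2, and the ribonuclease copies Rnaset2a and Rnaset2b in 5 and 4.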

How the data were processed

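Each library was deposited as a table of UMI counts, never below 0 and not normalized, for genes and cell barcodes. The authors' counts came from Cell Ranger 3.1.0 on build mm10, per the submitters' processing notes. The 4 libraries held 17888247 to 48419305 UMIs (TAA+C7.5 the fewest, TAA the most) in 6117 to 6915 barcodes. Barcodes with at least 200 genes and at most 20% mitochondrial UMIs were kept. Doublets were called per library with Scrublet (scanpy 1.11.5, expected 5%): 63 TAA and 153 TAA+C7.5 barcodes were removed. The 4 libraries were clustered together on 2000 variable genes and 30 principal components with Leiden (leidenalg 0.10.2), and clusters with several kinds of marker were clustered again.

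A cluster was named from at least 3 markers at least 2-fold above other cells. The naming thresholds, the CD3 rule that separates T from NK clusters and the choice of some described genes were set after the data had been seen. The members, markers and gene lists were chosen with earlier results of these data known. Named genes were the 5 with the largest ratio each way per class with at least 100 cells in both libraries, after leaving out mitochondrial, ribosomal, haemoglobin, immunoglobulin, unnamed and carried-over genes, plus up to 4 list members each way, the prostanoid list and genes past 2-fold the same way in 4 classes. Unnamed transcripts are not described. Intervals were exact (scipy 1.17.1): Clopper-Pearson for shares and conditional binomial for ratios. The ratio code was tested on simulated data. There is no test and no p-value, since each group is 1 mouse. Alternatives were the added CPM (1, 50), TMM scaling, mean CPM per cell, cells with 1000 UMIs, equal cluster weights, marker-score classes, doublets kept, 500 genes, 10% mitochondrial UMIs, 10 UMIs as the sole minimum, leukocytes as the denominator and both libraries clustered alone.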

Additional observations from a re-analysis of the deposited data

Results flagged for a closer look

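The cell cycle list moved in opposite directions in 2 classes under the same contrast. Its median log2 ratio of TAA+C7.5 to TAA was 0.59 in neutrophils (10 of 19 genes at least 1.5-fold higher, none lower) and -0.66 in NK or ILC (12 of 17 lower, none higher). The difference between the classes was not tested, with 1 mouse per side. In neutrophils Stmn1, a microtubule regulator of dividing cells, had 39 and 33 UMIs (13.1 and 38.6 CPM), and Mki67, a proliferation marker, 56 and 15 UMIs (18.8 and 17.6 CPM). The neutrophil median was 0.21 at equal cluster weights, 0.06 by the mean of each cell's CPM and -0.21 by marker scores. For NK or ILC the median was -0.40 by the mean of each cell's CPM and -0.43 by marker scores. Myeloid progenitor markers summed to 16.1 and 363 CPM in the neutrophil class, and their part was not tested.

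The cluster led by Dmbt1 and Spink4 also appeared in the TAA+C30 library, which the comparison does not use, with 14 cells, against 0 control cells.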

How the results depend on the processing

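No paired analysis was possible because each group is 1 mouse and the groups share only replicate number 1. Of 72 alternative share ratios 69 stayed within the counting interval, and the exceptions were neutrophils at 0.443 with at least 500 genes, cDC2 at 0.430 by marker scores, and T cells at 1.72 without the CD3 rule, an alternative added after seeing the data. Of 368 alternative list medians 343 stayed within the members' spread. Of 1040 alternative gene ratios 788 stayed within the counting interval and 6 were counted as reversed. Some smaller ratios also changed sign without being counted, such as Trem2 in monocytes or macrophages (-0.44, and 0.10 at equal cluster weights). Endothelial Stab2 likewise moved from -0.22 to 0.17 at equal cluster weights. Marker scores turned the neutrophil cell cycle median to -0.21, Elane to -0.05, Prtn3 to -0.37 and Stmn1 to -0.83. Equal cluster weights turned Spink4 to -0.11 and Lgals4 to -0.16 in cholangiocytes, and keeping doublets turned endothelial Ptgs2 to -0.03. The cause was not tested.

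Counts of genes past 2-fold (higher, then lower) moved by over 1.5 times most often with 50 CPM added: B cells 11 and 5, T cells 10 and 5, NK or ILC 21 and 13, neutrophils 10 and 9, monocytes or macrophages 9 and 6, cDC2 19 and 10, pDC 12 and 9, cholangiocytes 25 and 18. With 10 UMIs as the sole minimum, which tests more genes of low level, T cells had 34 higher, NK or ILC had 96 and 118, and the other classes had 59 and 66 in neutrophils, 73 and 80 in cDC2, 60 and 103 in pDC, and 96 and 56 in cholangiocytes. Equal cluster weights gave 13 lower in T cells, 19 lower in neutrophils, 15 and 9 in monocytes or macrophages, 25 higher in cDC2 and 31 higher in cholangiocytes. Marker scores gave 34 higher in NK or ILC and 16 higher in neutrophils. TMM scaling gave 18 higher in monocytes or macrophages and 46 lower in cDC2. The mean of each cell's CPM gave 47 lower in monocytes or macrophages and 52 lower in cDC2. Depth limits genes with few UMIs. TAA+C7.5 had the lower median depth per cell, though its T cells summed to 4021757 UMIs against 3924221 in TAA.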
